A study of Mus musculus with 51 samples.

Results

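The comparison set SV40-transformed mouse embryonic fibroblasts (MEFs) that received an HMGN1 construct labelled N2swap against the same cells with a construct labelled as HMGN2 overexpression. The titles of the arrays chose the members: 3 arrays carry the N2swap label and 3 the HMGN2 label, 6 of the 51 arrays of the series. All genes on the array were then described, 13469 genes after dim probe sets were left out, of 18193 gene symbols. The cells are a line from ATCC, held in a state of continuous growth by SV40, and no separate clone or infection is named for an array. The groups used below, 3 arrays each, are HMGN1_N2swap, HMGN1_N3swap, native HMGN1, HMGN2 and the empty vector. Cells with constructs labelled HMGN3a, HMGN5 and HMGN5SE, 3 arrays each, enter only the shared fit of 8 groups and the ranges over other arrays. They share the line, retroviral infection with polybrene at 5 µg/ml, selection with puromycin at 1 µg/ml for 7 days and 24 h without it before total RNA was taken, so that the vector cells carry all of these too. The labels do not say which segment of HMGN1 was exchanged in a swap. Nothing in them says that the 3 arrays of a group came from separate infections. The p-values thus measure the spread between arrays within the 8 groups of the fit, which may be technical.

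HMGN proteins are small chromosomal proteins of vertebrates that bind nucleosomes through a conserved domain rich in positive charge, without reading a particular DNA sequence. HMGN1 and HMGN2 are the most widely expressed members. Both loosen compaction of chromatin, compete with linker histone H1 for nucleosomes and affect modification of the histone tails, and they differ mainly outside the nucleosome-binding domain, in the C-terminal region. A construct that carries parts of one variant in the frame of the other is a way to ask which part of the protein goes with which expression profile.

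All values are RMA intensities from Affymetrix whole-genome mouse arrays on the log2 scale, and a difference is N2swap minus HMGN2, so a negative one means a lower level in N2swap cells. Errors of differences are standard errors from limma, which rest on a spread per gene shared by all 8 groups. The median SD per gene was 0.13 in N2swap cells, the largest of the 8 groups, and 0.088 in HMGN2 cells. The errors may thus be too small for N2swap cells. Each gene is represented by its brightest probe set, and a gene is called where limma's adjusted p, taken over all 13469 genes, is below 0.05. With only the 6 arrays in the fit 5164 genes were called, against 6762 in the fit of 8 groups. The median intensity lay between 18.7 and 19.6 on all 24 SV40 MEF arrays.

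Several properties of the 6 arrays bear on what follows. The control probe sets for Actb, which sample the 3' and the 5' part of the beta-actin transcript, differed by 0.79, 0.74 and 0.39 on the N2swap arrays, against 0.20, 0.068 and 0.0072 on the HMGN2 arrays. The 2 groups did not overlap, and the 15 arrays without a swap or HMGN2 construct lay between 0.18 and 0.39. Relative to those 15 arrays, the N2swap arrays thus stood at the high end or above and the HMGN2 arrays at the low end or below. The matching Gapdh difference was 0.037 to 0.37 on N2swap arrays and 0.087 to 0.14 on HMGN2 arrays, so for Gapdh the groups overlapped. A higher 3' over 5' signal is a usual sign of shortened or incompletely copied RNA. Its part in each difference was not tested. A fit with the Actb value as a covariate was made, and its effect on the counts and on named genes is given with them. That fit holds the group means too, so the covariate rests on the spread within groups, widest in N2swap cells (SD 0.22). As the 2 groups did not overlap, it cannot separate 3' bias from construct, and its values are not freed of that bias. Among the N2swap arrays, the first and second differed by a median of 0.11 per probe set, and the third differed from them by 0.16 and 0.16.

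**Figure D1:**
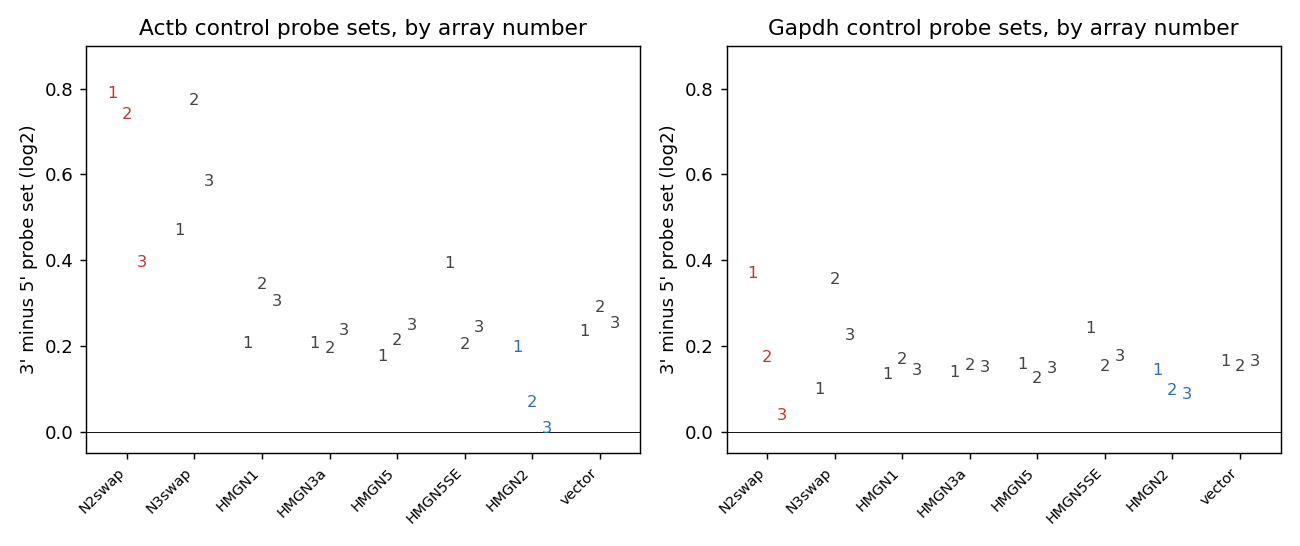
The 3' minus 5' difference (log2) of the Actb (left) and Gapdh (right) control probe sets on the 24 SV40 MEF arrays, each drawn as its replicate number within its group. For Actb the N2swap arrays (red) lie between 0.39 and 0.79 and the HMGN2 arrays (blue) between 0.0072 and 0.20.

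The N2swap arrays differed little from those of the other swap construct, HMGN1_N3swap. Between them limma called 0 of 13469 genes (0%), while 1106 genes had an unadjusted p below 0.05, and the median absolute difference per gene was 0.07. The third N2swap array and the first N3swap array differed by a median of 0.09 per gene, less than any pair of N2swap arrays. The first and second N2swap arrays differed from the second and the third N3swap arrays by 0.11 to 0.12. For the 28 genes with the largest differences from HMGN2 named below, the N2swap minus N3swap difference lay between -0.25 and 0.30. For those 28 genes the N3swap mean thus lay on the same side of the HMGN2 mean as the N2swap mean. A p that misses the threshold does not show that the constructs act alike. How many genes differ between N3swap and HMGN2 cells was not counted here.

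The introduced constructs were not visible as a large rise of the corresponding probe sets. Hmgn1, on its brightest probe set, read 12.24, 12.53 and 12.42 in N2swap cells and 12.22, 12.35 and 12.20 in HMGN2 cells, a difference of 0.14 ± 0.07 (limma adjusted p = 0.0845). It was called with the arrays quantile-normalized once more (0.20), and of its 3 probe sets past the filter another was called higher, by 0.22 ± 0.07. The only probe set for Hmgn2 is shared with 3 pseudogenes, and read 11.79 ± 0.13 in N2swap cells, 12.00 ± 0.17 in HMGN2 cells and 11.90 in vector cells (SD, n = 3 for each of the first and second). The difference of -0.21 ± 0.08 had an adjusted p of 0.0462 in limma over all probe sets. Hmgn3 differed by 0.09 ± 0.08 and Hmgn5 by 0.05 ± 0.09, and neither was called. These probe sets read the mouse transcripts, and whether they match the introduced sequences is not stated, so they neither check the labels nor contradict them.

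In all, 6762 of the 13469 genes were called (50.2%), 3731 higher in N2swap cells (27.7%) and 3031 lower (22.5%). The differences were mostly small: the median absolute difference was 0.22, and 1528 genes (11.3%) passed 1.5-fold as well. At that size the balance turned to falls, with 552 genes higher (4.1%) and 976 lower (7.25%), and at 4-fold or more only 5 rose and 54 fell. At 8-fold or more 1 rose and 14 fell. The balance of all calls also turned with the Actb value as a covariate, to 1669 higher and 2029 lower among 3698, and with every probe set on its own, to 5804 higher and 6618 lower. With the arrays quantile-normalized once more, the numbers at 1.5-fold or more were 748 higher and 815 lower. For comparison in the same fit, 4989 genes (37%) were called between N2swap and vector cells, 5969 (44.3%) between HMGN2 and vector cells, and 6205 (46.1%) between N2swap and native HMGN1 cells. These comparisons share arrays with the one described here, so only their own values are given side by side.

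**Figure D2:**
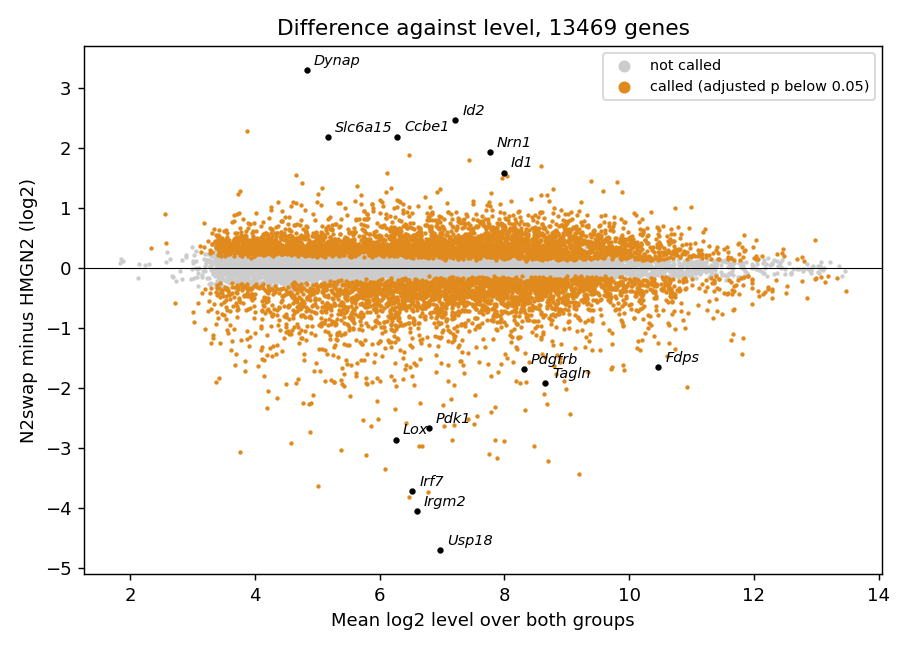
N2swap minus HMGN2 difference (log2) of each of the 13469 genes against its mean log2 level over both groups, with called genes in orange and 14 genes labelled. The tail of falls, led by Usp18 at -4.71, is longer than the tail of rises, led by Dynap.

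The largest falls belonged mostly to the interferon response. Interferon released by virus-infected cells, or made in response to nucleic acid in the cytosol, activates transcription factors that bind a shared promoter element and switch on antiviral genes. All 34 tested members of the interferon response list were lower in N2swap cells, where 22.5% of all genes were, with a median difference of -2.56 against 0.06 over all genes. Their 3 N2swap and 3 HMGN2 values did not overlap for any of the 34, as was so for 51.7% of all genes, and their differences lay between -4.71 and -0.62. The list was 38 genes long, and 4 of them fell under the filter on dim probe sets.

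Usp18, which removes the ubiquitin-like protein ISG15 and damps signalling from the interferon receptor, read 4.75, 4.56 and 4.51 in N2swap cells, against 8.76, 9.75 and 9.44 in HMGN2 cells. The fall of 4.71 ± 0.18 on the log2 scale (limma adjusted p = 1.5e-14) amounted to 26.2-fold. Irf7, the transcription factor that amplifies interferon production, read 4.69, 4.72 and 4.57 in N2swap cells and 8.01, 8.69 and 8.46 in HMGN2 cells, a difference of -3.73 ± 0.14. Stat2, one of the factors that interferon activates, read 3.48, 3.72 and 4.37 in N2swap cells and 6.25, 7.34 and 7.11 in HMGN2 cells, and its difference was -2.01 with the Actb value as a covariate, against -3.05 without. For each of these genes the groups did not overlap, and the second HMGN2 array was the highest of its group and the first the lowest.

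Antiviral effectors fell as well. Ifit3, which binds foreign RNA together with its relatives, averaged 4.91 ± 0.19 in N2swap cells and 8.65 ± 0.62 in HMGN2 cells (SD, n = 3 each). Oasl2, of the oligoadenylate synthetase family, read 6.33, 6.35 and 6.20 in N2swap cells and 8.94, 9.86 and 9.58 in HMGN2 cells. Cmpk2, a mitochondrial nucleotide kinase induced by interferon, fell by 3.83 ± 0.21 on the log2 scale. Dhx58, which encodes the RNA-binding helicase LGP2, fell by 3.11 ± 0.21, and Xaf1, an interferon-induced promoter of cell death, fell by 3.44 ± 0.12. Ddx60, a helicase linked to RNA sensing, was below the level of the filter (3.63) in N2swap cells, so its fall is given only as at least 3.20 on the log2 scale. The interferon-inducible GTPases that act on membranes around intracellular parasites fell too: Irgm2 by 4.06 ± 0.21, Ifi47 by 3.35 ± 0.13 and Igtp by 3.11 ± 0.18. Rtp4, a receptor transporter that interferon also induces, fell by 3.22 ± 0.17.

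It was the HMGN2 cells that stood away from the vector. Usp18 averaged 4.61 in N2swap cells, 9.32 in HMGN2 cells, 10.43 in native HMGN1 cells and 4.74 in vector cells. In the fit, 34 of the 34 listed genes were higher in HMGN2 than in vector cells (median 2.55, with 18.7% of all genes higher), whereas between N2swap and vector cells 3 were higher and 5 lower (median -0.12, with 17.7% and 19.3% of all genes). Against native HMGN1 cells the median N2swap difference was -2.94. The N2swap cells thus sat near the vector level for most of this list, while HMGN2 and native HMGN1 cells stood above it. One of the 14 largest falls, AW551984, followed another pattern: it averaged 2.23 in N2swap cells, 5.30 in HMGN2 cells, 2.20 in native HMGN1 cells and 2.19 in vector cells, a fall of at least 1.67 since 2.23 is below the filter level. Without the filter the gene was read from another probe set, which reached the filter level in no group, and the difference there was -0.38.

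The promoters of interferon genes carry a short element called the ISRE, through which interferon acts on them. The letters GAAA, followed after any 2 bases by GAAA again, form its core and were searched on both strands in the 250 bases before the start of each gene in RefSeq's promoter table (GRCm38.p6). They occurred before 13 of the 26 listed interferon genes found in the table (50%), against 3.46% of all 27025 genes. The 3 promoters below belong to Ifit3, Stat2 and Igtp, which are named above for their falls and carry a match. They show it in capitals, read on either strand. Cmpk2, Irf7, Xaf1, Ifi47 and Oasl2, also named for their falls, had no match. The matches end 146 and 112 bases before the start of Ifit3, 212 bases before that of Stat2 and 24 bases before that of Igtp. Such a match describes letters and not binding.
Ifit3 (GRCm38.p6, chr19:34583279-34583528, + strand): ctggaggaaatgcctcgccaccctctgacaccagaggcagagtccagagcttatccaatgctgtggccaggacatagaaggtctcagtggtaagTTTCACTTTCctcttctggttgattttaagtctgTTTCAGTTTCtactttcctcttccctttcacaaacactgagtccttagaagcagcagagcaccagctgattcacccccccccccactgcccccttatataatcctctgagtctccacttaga
Stat2 (GRCm38.p6, chr10:128270248-128270497, + strand): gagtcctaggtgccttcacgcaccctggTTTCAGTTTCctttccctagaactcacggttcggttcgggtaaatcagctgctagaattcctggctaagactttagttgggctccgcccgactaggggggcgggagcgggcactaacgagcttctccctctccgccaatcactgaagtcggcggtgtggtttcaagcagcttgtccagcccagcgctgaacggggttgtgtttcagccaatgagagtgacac
Igtp (GRCm38.p6, chr11:58199306-58199555, + strand): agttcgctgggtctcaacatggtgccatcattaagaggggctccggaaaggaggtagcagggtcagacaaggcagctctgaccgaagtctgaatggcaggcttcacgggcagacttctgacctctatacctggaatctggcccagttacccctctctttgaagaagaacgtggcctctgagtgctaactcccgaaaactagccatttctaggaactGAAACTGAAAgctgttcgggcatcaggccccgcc

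Genes that prepare peptides for MHC class I, many of which interferon also induces, fell in the same cells. All 10 tested members were lower, against 22.5% of all genes, with a median of -1.50. Psmb8, a catalytic subunit of the immunoproteasome, read 4.47, 4.41 and 4.51 in N2swap cells and 6.67, 7.46 and 6.85 in HMGN2 cells, a difference of -2.53 ± 0.17 (limma adjusted p = 9.3e-11). The groups did not overlap. In native HMGN1 cells Psmb8 averaged 4.59, against 4.46 in N2swap cells, and 3.60 in vector cells, the last just below the filter level. Tap1 was not like it and averaged 5.07 in N2swap cells, 7.42 in HMGN2 cells, 7.64 in native HMGN1 cells and 5.24 in vector cells, and over the list the median N2swap minus native HMGN1 difference was -1.46. Tap1, a subunit of the peptide transporter of the endoplasmic reticulum, fell by 2.35 ± 0.12, Psmb9, another immunoproteasome subunit, by 1.61 ± 0.11, and Psme1, an activator of the proteasome that lies on chromosome 14, by 1.62 ± 0.07. Inflammatory chemokines, which call in leukocytes, included the fall of Cxcl10 to 7.83 ± 0.04 in N2swap cells, against 10.26 ± 0.23 in HMGN2 cells. Ccl2, which attracts monocytes, differed by -1.89 without overlap, and Ccl5, which attracts T cells, fell by 1.36 ± 0.07. Over the whole list of chemokines and NF-kB targets 6 of 20 genes were higher and 7 lower (median -0.11). Vcam1, an adhesion receptor for leukocytes, was not called on its brightest probe set, at 9.85 in N2swap and 9.93 in HMGN2 cells, but another probe set was lower (-0.62 ± 0.16).

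**Figure D3:**
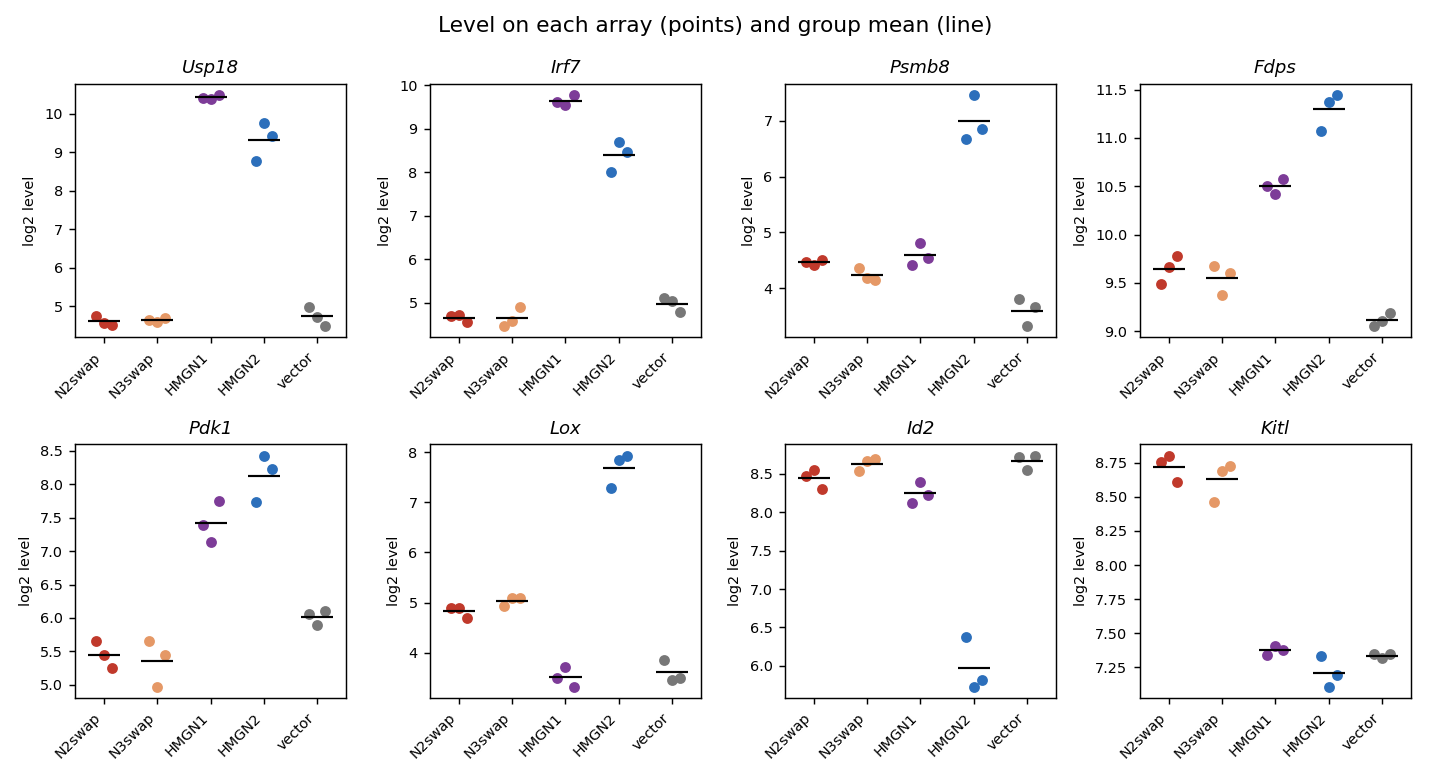
Log2 level of 8 genes on each array (points; the line is the group mean) in N2swap, N3swap, native HMGN1, HMGN2 and vector cells, 3 arrays each. N2swap and N3swap points lie together in each panel, while HMGN2 points lie above them for the first 6 genes and below them for Id2 and Kitl.

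The cholesterol pathway fell as a whole. Cells make cholesterol from acetyl-CoA through mevalonate and squalene, and the factor SREBP2 drives the genes of the pathway when sterols are scarce. All 20 tested members were lower in N2swap cells, none with overlapping values, where 22.5% of all genes were lower and 51.7% did not overlap, and the median was -0.98. Fdps, which makes farnesyl diphosphate, read 9.49, 9.66 and 9.78 in N2swap cells and 11.07, 11.38 and 11.44 in HMGN2 cells, a difference of -1.65 ± 0.11 (limma adjusted p = 1.18e-10). Insig1, which holds the SREBP complex in the endoplasmic reticulum and is itself an SREBP target, read 6.26, 6.36 and 6.25 in N2swap cells and 7.94, 7.99 and 7.80 in HMGN2 cells. Neither gene's groups overlapped. Cyp51, which removes a methyl group from lanosterol, fell by 1.58 ± 0.08, on all 3 of its probe sets. Fdft1, squalene synthase, on chromosome 14, fell by 1.64 ± 0.08 on its brightest probe set, but of its 4 probe sets 2 were lower and 1 higher.

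Most of these genes were above the vector level in N2swap cells too. Fdps averaged 9.64 in N2swap cells, 11.30 in HMGN2 cells and 9.12 in vector cells, and N2swap minus vector was 0.53 ± 0.11. Over the list, 13 genes were higher and 3 lower in N2swap than in vector cells (median 0.27), and 20 were higher in HMGN2 than in vector cells (median 1.16). Native HMGN1 cells, at 10.50 for Fdps, lay between. Enzymes of fatty acid synthesis and desaturation were split: 7 of 14 fell and 1 rose, with a median of -0.23. Those that fell most act on double bonds or on acetate: the differences were -1.50 ± 0.11 for Fads2, -1.43 ± 0.09 for Scd2, -1.37 ± 0.08 for Scd1 and -1.19 ± 0.12 for Acss2. Fasn, the fatty acid synthase itself, was not called at 10.16 ± 0.09 in N2swap cells and 10.04 ± 0.05 in HMGN2 cells, although it was called higher with quantile normalization again (0.15). Nor was Me1, which supplies NADPH, at 9.07 and 9.08, while its other probe set was lower (-0.29 ± 0.10). The member that rose was Elovl1, an elongase, by 0.25, chosen after its values were seen. With the Actb value as a covariate it stood at -0.18 and was not called, it was not called in 7 other alternatives either, and 8 of the 14 members were lower.

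The promoters of sterol genes often carry a CCAAT box near the element that SREBP2 binds. The letters GATTGG, which hold an inverted CCAAT box, occurred on either strand in the 250 bases before the start of 12 of the 16 listed cholesterol genes in the table (75%), against 16.6% of all genes. Insig1, named above, had no match. Cyp51 is shown because it fell on every probe set and carries a match, 23 bases before the start, in capitals.
Cyp51 (GRCm38.p6, chr5:4104698-4104947, - strand): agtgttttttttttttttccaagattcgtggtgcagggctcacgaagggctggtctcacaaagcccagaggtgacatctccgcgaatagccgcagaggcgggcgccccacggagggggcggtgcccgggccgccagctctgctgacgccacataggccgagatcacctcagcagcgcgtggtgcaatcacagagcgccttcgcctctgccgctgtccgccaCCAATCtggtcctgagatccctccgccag

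Genes of hypoxia and glycolysis were the fourth group to fall nearly as one. Low oxygen stabilizes HIF-1, which turns cells from respiration to glycolysis by raising glycolytic enzymes, lactate export and a kinase that blocks pyruvate entry to mitochondria. Of 24 tested members 22 were lower and none higher, against 22.5% and 27.7% of all genes, with a median of -0.61. Pdk1, that kinase, read 5.66, 5.45 and 5.25 in N2swap cells and 7.73, 8.42 and 8.23 in HMGN2 cells, a difference of -2.67 ± 0.17 (limma adjusted p = 2.85e-11), or 6.39-fold. Ndrg1, a stress-induced gene, averaged 5.87 ± 0.06 in N2swap cells and 8.16 ± 0.42 in HMGN2 cells, and all 5 of its probe sets were lower. Bnip3, which promotes removal of mitochondria, read 7.78, 7.53 and 7.35 in N2swap cells and 9.40, 10.21 and 9.87 in HMGN2 cells. None of these 3 genes had overlapping groups, and the second HMGN2 array was the highest for each. The members not called were Pgam1, a glycolytic mutase, at 11.45 ± 0.16 in N2swap cells and 11.57 ± 0.09 in HMGN2 cells (called without the third N2swap array), and Eno2, an enolase, with a difference of -0.0063 on the log2 scale.

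For several of these genes N2swap cells were also below the vector. Pdk1 was -0.57 ± 0.17 and Ndrg1 was -0.94 in N2swap minus vector, and over the list 12 genes were lower and 2 higher (median -0.28), against 16 higher and none lower in HMGN2 minus vector (median 0.43). Slc16a3, the lactate exporter MCT4, differed: it averaged 5.67 in N2swap cells, 7.32 in HMGN2 cells and 3.75 in vector cells. With the Actb value as a covariate 15 of the 24 genes were called lower, with a median of -0.67 against -0.61 without it. With only the third N2swap array the median was -0.59. The Actb value of that array was the lowest of its group but still above those of the HMGN2 arrays. The letters ACGTGC, a form of the core of the element that HIF-1 binds, occurred before 11 of 23 listed genes in the table (47.8%) and before 5.63% of all genes. Other forms of that core were not searched. Bnip3 and Slc16a3 are shown as listed genes that fell and carry a match, while Pdk1, the largest fall of the list, had none. In Bnip3 a reverse and a forward match overlap and end 103 and 101 bases before the start. In Slc16a3 both matches are forward and end 21 and 8 bases before the start.
Bnip3 (GRCm38.p6, chr7:138909507-138909756, - strand): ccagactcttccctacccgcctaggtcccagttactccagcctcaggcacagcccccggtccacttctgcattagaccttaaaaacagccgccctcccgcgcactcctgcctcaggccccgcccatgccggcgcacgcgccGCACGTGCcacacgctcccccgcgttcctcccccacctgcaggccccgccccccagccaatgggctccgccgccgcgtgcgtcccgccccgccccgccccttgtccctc
Slc16a3 (GRCm38.p6, chr11:120948817-120949066, + strand): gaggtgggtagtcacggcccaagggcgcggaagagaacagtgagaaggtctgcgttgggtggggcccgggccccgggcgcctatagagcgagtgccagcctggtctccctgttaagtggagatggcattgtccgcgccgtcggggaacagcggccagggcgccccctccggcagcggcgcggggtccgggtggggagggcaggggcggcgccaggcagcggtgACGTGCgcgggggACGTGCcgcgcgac

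**Figure D4:**
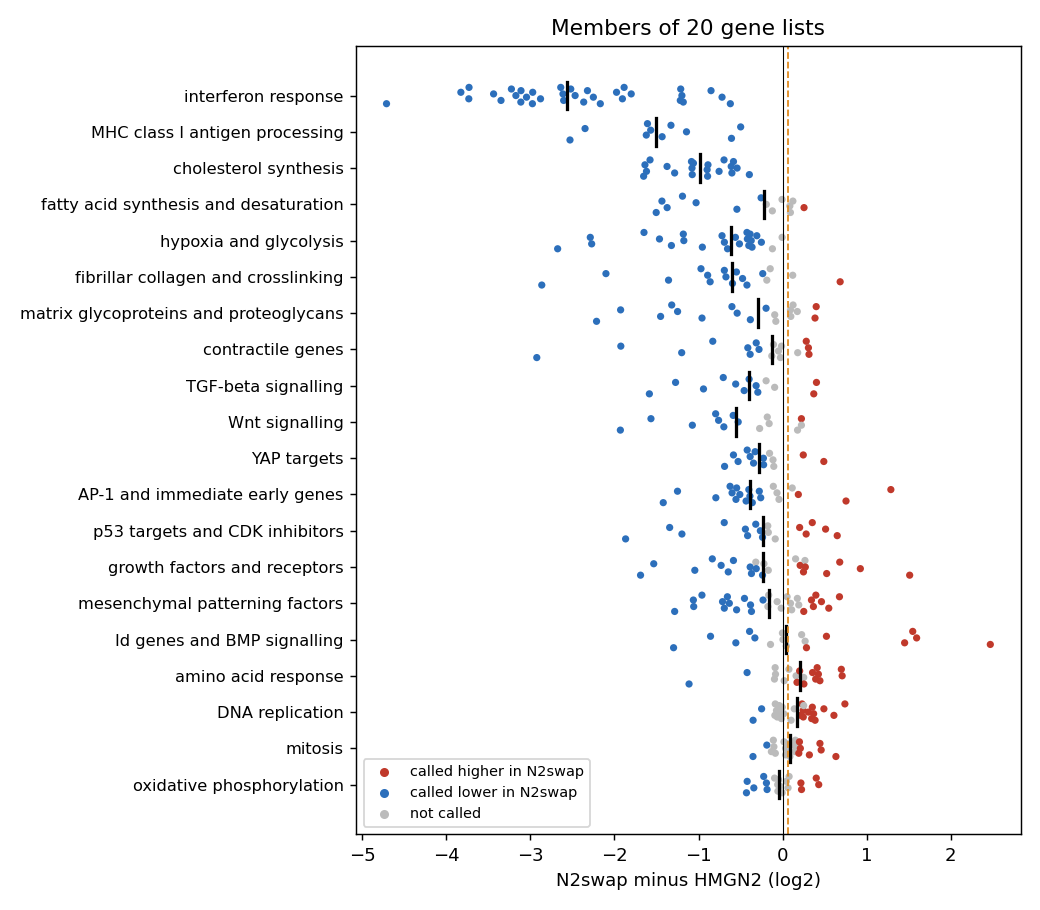
N2swap minus HMGN2 difference (log2) of each tested member of 20 gene lists, coloured by its call. Black bars are list medians, and the dashed line is the median of all 13469 genes, 0.06. Interferon, MHC class I and cholesterol genes are all lower in N2swap cells.

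Matrix and contractile genes of activated fibroblasts fell in part. For these and the lists that follow, 27.7% of all genes were higher, 22.5% were lower, and the median of all genes was 0.06. Of 17 genes of fibrillar collagen and its crosslinking, 13 fell and 1 rose (median -0.60). Lox, which crosslinks collagen and elastin, read 4.89, 4.90 and 4.69 in N2swap cells and 7.29, 7.84 and 7.93 in HMGN2 cells, a difference of -2.86 ± 0.14. Col3a1, type III collagen, averaged 7.59 ± 0.09 in N2swap cells and 9.69 ± 0.33 in HMGN2 cells. Neither gene's groups overlapped. Col1a1, type I collagen, fell by 1.36 ± 0.12 on its brightest probe set, while its other probe set was higher, and by 0.76 with the Actb value as a covariate. Pcolce, which promotes procollagen cleavage, was not called on its brightest probe set, at 11.58 in N2swap and 11.46 in HMGN2 cells, but its other probe set was lower, by 0.60 ± 0.11. The one rise was that of Loxl4, a lysyl oxidase relative, by 0.68 ± 0.08, chosen after its values were seen. Lox stood between vector and HMGN2 cells: N2swap minus vector was 1.22 ± 0.14 and HMGN2 minus vector 4.08 ± 0.14. Its vector mean, 3.60, was just below the filter level of 3.63. The summed linear level of the 11 tested fibroblast markers, 3 of which are also on this list, moved the same way, at 14557 to 17333 in N2swap cells, 21475 to 23036 in HMGN2 cells and 14204 to 14587 in vector cells, and its part in the result was not tested.

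Among 18 matrix glycoproteins and proteoglycans 10 fell and 2 rose (median -0.29). Fbln5, needed for elastic fibres, read 5.01, 4.87 and 4.70 in N2swap cells and 7.05, 7.03 and 7.13 in HMGN2 cells. Thbs1, an activator of latent TGF-beta, read 6.97, 7.10 and 7.81 in N2swap cells and 9.16, 9.19 and 9.30 in HMGN2 cells, the third N2swap array being the highest of its group, and its difference was -0.89 with the Actb value as a covariate, against -1.93 without. Tnc, a glycoprotein of remodelling tissue, fell by 1.32 ± 0.07. Bgn and Sparc, abundant matrix genes, were not called on their brightest probe sets, with differences of 0.09 ± 0.06 and -0.09 ± 0.09. Bgn was called higher with quantile normalization again (0.16), and another probe set of Sparc was lower (-0.45 ± 0.11). Of 15 matrix proteases and inhibitors 8 fell and 4 rose. The falls were led by the aggrecan-cutting proteases Adamts1 (-1.95 ± 0.11), Adamts5 (-1.88 ± 0.15) and Adamts4 (-1.29 ± 0.11) and by Plat, tissue plasminogen activator (-1.73 ± 0.09). Cdh11, the cadherin of mesenchymal cells, read 5.73, 5.96 and 5.47 in N2swap cells and 8.59, 8.53 and 8.65 in HMGN2 cells, against 3.81 on average in vector cells. It was the largest difference among the cadherins and integrins, of which 4 of 16 rose and 5 fell.

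The contractile list was mixed, with 8 of 17 genes lower, 3 higher and a median of -0.13. Tagln, an actin-binding protein of smooth muscle, read 7.69, 7.72 and 7.65 in N2swap cells and 9.72, 9.47 and 9.63 in HMGN2 cells. Acta2, smooth muscle actin, read 9.83, 9.62 and 9.39 in N2swap cells and 10.85, 10.72 and 10.87 in HMGN2 cells. Both fell without overlap, and Myl9, a myosin light chain, was below the filter level in N2swap cells and fell by at least 2.41 on the log2 scale. Tpm1, a tropomyosin, fell by 0.83 ± 0.08 (-0.47 with the Actb value as a covariate), but Tpm4, another one, was not called, with a difference of -0.01 ± 0.05. The summed linear level of the 5 tested smooth muscle and pericyte markers was 783 to 1011 in N2swap cells, 1831 to 2030 in HMGN2 cells and 340 to 382 in vector cells. Acta2, by far the brightest of the 5, makes up most of that sum and is also on the contractile list, so the sum is no separate support. The median difference of the 5 markers was 0.18. Of those 5, Acta2 and Mcam fell, 1 rose and 2 were not called, while Myh11, which defines mature smooth muscle, was below the filter in both groups, at 2.92 and 2.56. The part of a change in cell state or in cell number was not tested, and in bulk RNA fewer cells of a kind and less RNA per cell cannot be told apart.

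Signalling genes linked to that programme fell more often than they rose. Of 13 TGF-beta genes 9 fell and 2 rose (median -0.40). Tgfbi, a matrix protein induced by TGF-beta, read 5.66, 5.53 and 5.16 in N2swap cells and 6.98, 7.03 and 7.08 in HMGN2 cells, on 4 of 4 probe sets. The ligand Tgfb3 fell by 1.27 ± 0.12 and the receptor Tgfbr2 by 0.94 ± 0.06, while the partner receptor Tgfbr1 was not called on its brightest probe set (-0.20 ± 0.09). Its 2 other probe sets were called lower, and with the Actb value as a covariate the brightest was too (-0.62). Of 14 Wnt genes 8 fell and 1 rose (median -0.56). Dkk3, of the Dickkopf family of secreted proteins, averaged 4.44 ± 0.11 in N2swap cells and 6.36 ± 0.29 in HMGN2 cells, and the Frizzled receptors Fzd2, Fzd7 and Fzd1 fell by 1.57 ± 0.14, 1.07 ± 0.07 and 0.80 ± 0.09, with Fzd2 at -0.76 when the Actb value was a covariate. Among YAP targets 9 of 14 fell and 2 rose (median -0.28), Ccn2, a matricellular protein, by 0.53 ± 0.09 (-0.91 with the Actb value as a covariate). With that covariate 4 of the 14 were higher and 4 lower (median -0.16).

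Immediate early genes, which answer growth signals within minutes, were mostly lower: 14 of 21 fell and 3 rose (median -0.39). Dusp1, a phosphatase that ends MAP kinase signalling, read 7.67, 7.69 and 7.50 in N2swap cells and 8.93, 9.07 and 9.11 in HMGN2 cells. Fos, a subunit of AP-1, read 5.31, 5.55 and 5.20 in N2swap cells and 6.42, 6.72 and 6.67 in HMGN2 cells. Fosl1, another AP-1 subunit, ran the other way at 10.22, 10.20 and 10.27 in N2swap cells and 9.08, 8.82 and 8.92 in HMGN2 cells, a rise of 1.29 ± 0.07 (limma adjusted p = 7.04e-12). Thus single AP-1 subunits moved in opposite directions, each without overlap. Hspa1a, a stress-induced chaperone, fell by 1.91 ± 0.13 and its near-identical copy Hspa1b by 1.10 ± 0.09. The probe sets of these copies can share targets, so the split between them is uncertain, and the chaperone list as a whole had 6 of 14 higher and 7 lower.

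Growth factor genes went both ways, with 7 of 23 higher and 11 lower. Kitl, the ligand of the receptor Kit, read 8.75, 8.80 and 8.61 in N2swap cells and 7.33, 7.11 and 7.19 in HMGN2 cells, a rise of 1.51 ± 0.09 on its brightest probe set, and 2 of its 4 probe sets were called. Pdgfrb, a receptor for platelet-derived growth factor and a fibroblast marker, read 7.57, 7.62 and 7.20 in N2swap cells and 9.12, 9.24 and 9.10 in HMGN2 cells. Igf1, an insulin-like growth factor, fell by 1.04 ± 0.11 and Igfbp4, which binds it, by 1.53 ± 0.15. Cell cycle inhibitors and p53 targets fell in 9 and rose in 5 of 17 genes. Trp53inp1, a p53-induced gene, read 4.23, 4.33 and 4.29 in N2swap cells and 5.97, 6.20 and 6.27 in HMGN2 cells, and averaged 5.25 in vector cells, between them. Cdkn1b, the inhibitor p27, fell by 1.34 ± 0.09, and Cdkn2c, the inhibitor p18, by 0.69 ± 0.07, and Btg2, an antiproliferative gene, differed by -1.20 ± 0.12, while Mdm2, which degrades p53, was not called (-0.09 ± 0.06).

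Genes of DNA replication leaned the other way, with 12 of 26 higher and 2 lower and a median of 0.18. Pole and Prim1, a DNA polymerase and a primase subunit, rose by 0.49 ± 0.06 and 0.39 ± 0.06, and Pold1, another polymerase, by 0.74 ± 0.11, the third N2swap array at 8.26 being closer to the HMGN2 arrays (7.84, 7.85 and 7.89) than the others at 8.76 and 8.78. With the Actb value as a covariate 3 of the 26 were called higher, and Pold1 was not (0.17). Mitosis genes, with 7 of 23 higher and 2 lower, had a median of 0.09, near that of all genes. Cenpe, a kinetochore motor, rose by 0.63 ± 0.06 on its brightest probe set, while its other probe set was not called (0.08 ± 0.24). Top2a, a topoisomerase, was not called on its brightest probe set (0.05 ± 0.07), but its other probe set was higher (0.28 ± 0.09). Amino acid response genes rose in 10 and fell in 2 of 19 (median 0.20). Shmt2, which makes glycine and one-carbon units, read 10.90, 10.88 and 10.89 in N2swap cells and 10.31, 10.06 and 10.19 in HMGN2 cells, and Chac1, which degrades glutathione, rose by 0.70 ± 0.08.

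At 1.5-fold or more rises were fewer than falls (552 against 976), and the Id genes were among the largest of them. Id proteins lack a DNA-binding region and hold back helix-loop-helix factors, and BMP signals induce them. All 4 Id genes were higher in N2swap cells. Id2 read 8.47, 8.56 and 8.30 in N2swap cells and 6.38, 5.73 and 5.81 in HMGN2 cells, a rise of 2.47 ± 0.12 (limma adjusted p = 1.1e-12), or 5.54-fold, on 3 of 3 probe sets. Id1 rose by 1.59 ± 0.10, Id3 by 1.45 ± 0.09 and Id4 by 1.55 ± 0.14. The other 13 tested members of the list did not share that direction: 2 were higher, 5 lower and the remaining ones not called. The 5 that fell included, chosen after their values were seen, the ligand Bmp4 (-1.30 ± 0.12) and the receptor Bmpr1a (-0.56 ± 0.07).

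Against the vector most of the 14 largest rises showed 1 of 3 patterns, which were sorted after their values were seen. In the first, N2swap cells stood near the vector and HMGN2 cells below it. Id2 was -0.23 ± 0.12 in N2swap minus vector and -2.70 ± 0.12 in HMGN2 minus vector, and Nrn1, a neurite-promoting surface protein, was 0.06 ± 0.07 and -1.88 ± 0.07. Id4, Dlx2, a homeobox factor, and Dancr, a long non-coding RNA, were roughly alike. N2swap minus vector was 0.38 ± 0.16 for Dlx2, not called, and 0.28 ± 0.10 for Dancr, which was called higher. With the Actb value as a covariate the rise of Dlx2 over HMGN2 cells was 1.19, against 1.89 without. Id1 had none of the patterns, with differences from the vector of -0.75 in N2swap cells and -2.34 in HMGN2 cells. In the second, HMGN2 cells stood near the vector and N2swap cells above it. Dynap, which encodes a small membrane protein, read 6.71, 6.41 and 6.32 in N2swap cells and was below the filter in HMGN2 cells, a rise of at least 2.85. Kitl was 1.39 ± 0.09 in N2swap minus vector and -0.12 ± 0.09 in HMGN2 minus vector. Ccbe1, a secreted factor of lymphatic growth, rose by 2.20 ± 0.17 over HMGN2 cells, and Evi2a rose by at least 1.38. For Ccbe1 the HMGN2 cells were called lower than the vector, by 0.48 ± 0.17. In the third, both groups were above the vector and N2swap cells more so. Cavin2, a coat protein of caveolae, averaged 9.45 in N2swap cells, 7.74 in HMGN2 cells and 6.09 in vector cells. Slc6a15, an amino acid transporter, averaged 6.26, 4.08 and 3.22 in the same order, the last below the filter level. Ndn, the imprinted growth suppressor necdin, averaged 6.92, 5.33 and 4.74. Gatad2b, a subunit of the NuRD complex, rose by 1.53 ± 0.23, but on 1 of 5 probe sets only and with values of 9.15, 9.22 and 8.06 in N2swap cells. With the Actb value as a covariate it was not called (0.45).

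Other developmental genes gave a mixed picture. Of 29 mesenchymal patterning factors 7 rose and 13 fell (median -0.17), with Foxf1, a forkhead factor, down by 1.06 ± 0.08 and Prrx1, a limb mesenchyme factor, not called on its brightest probe set (-0.18 ± 0.08), although 3 of its 5 probe sets were lower, by 0.98 to 1.08. Of 19 Hox genes 6 rose and 3 fell. Hmga2, an architectural chromatin protein of embryonic cells, read 11.51, 11.54 and 11.46 in N2swap cells and 10.60, 10.48 and 10.35 in HMGN2 cells, on 4 of 4 probe sets. Plagl1, an imprinted zinc finger factor, rose by 1.27 ± 0.11 on its brightest probe set, while its other probe set was not called (0.01 ± 0.11). Crabp1, which binds retinoic acid in the cytosol, averaged 9.44 in N2swap cells, 8.11 in HMGN2 cells and was 5.68 ± 0.16 above the vector in N2swap cells. Of 22 chromatin modifiers 4 rose and 9 fell, Smarca2, an ATPase of SWI/SNF complexes, by 1.23 ± 0.13, while Hdac1, a histone deacetylase, was not called (0.05 ± 0.05). Of the remaining lists, the unfolded protein response leaned to falls, with 9 of 16 lower and 1 higher (median -0.18). Basement membrane genes had 6 of 14 higher and 1 lower, but their median of 0.05 was near that of all genes, 0.06. With the Actb value as a covariate 1 of them was higher and 1 lower. Axon guidance genes rose in 7 and fell in 4 of 23, and glutathione and NRF2 genes rose in 5 and fell in 6 of 16. Imprinted growth genes rose in 3 and fell in 4 of 15, tubulins in 2 and 4 of 13, retinoic acid genes in 2 and 3 of 9 and complement genes in 2 and 2 of 6. Of 6 HMG genes 1 rose, Hmga2, and 2 fell, and genes linked to HMGN proteins rose in 3 and fell in 4 of 9. Respiratory chain genes had a median near that of all genes, with 4 of 19 higher, 6 lower and a median of -0.05.

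With the Actb value as a covariate fewer list members were called, as were fewer genes in all. In that fit 1669 of the 13469 genes were higher and 2029 lower, and the counts below are to be read beside these. Rises were found in 3 of 26 DNA replication genes (0 lower), against 12 without it, and in 2 of 23 growth factor genes (8 lower), 1 of 20 chemokine and NF-kB genes (5 lower), 4 of 29 patterning factors (10 lower), 2 of 17 cell cycle inhibitors and p53 targets (6 lower) and 1 of 15 matrix proteases (7 lower). They were found in 2 of 19 Hox genes (0 lower), none of 22 chromatin modifiers (6 lower), none of 13 TGF-beta genes (9 lower) and 1 of 17 contractile genes (9 lower). Axon guidance genes had 3 higher and 4 lower, glutathione and NRF2 genes 2 and 3, respiratory chain genes 2 and 1, and chaperones 4 and 4. Interferon, MHC class I and cholesterol genes had 33, 9 and 19 lower and none higher.

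Fibroblast markers were present in both groups, with 11 of 13 past the filter. Of the 11, 6 fell, 1 rose and 4 were not called, among them S100a4 at 12.44 and 12.43. The markers Lum and Fap were below the filter. Of the markers of other cell types, Ptprc for leukocytes, Pecam1 and Cdh5 for endothelium and Cdh1 for epithelium were below the filter level in both groups, while others, such as Csf1r at 5.28 and 5.19 and Nes at 7.59 and 7.48 in N2swap and HMGN2 cells, were above it. The summed level of the 8 tested leukocyte markers was 229 to 247 in N2swap cells and 199 to 226 in HMGN2 cells, so that the groups did not overlap but differed little, and 3 of the 8 were called higher. None of the 4 endothelial and none of the 10 neural markers tested was called, and of 10 epithelial markers 2 were lower, with sums of 345 to 369 in N2swap cells, 420 to 441 in HMGN2 cells and 924 to 987 in vector cells. Skeletal muscle markers rose in 2 and fell in 1 of 7, cartilage and bone markers rose in 1 of 5, and adipocyte markers rose in 1 and fell in 2 of 4.

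Chromosome 14 stood apart from the others, which was seen in the data and not looked for. Of its 438 tested genes 201 were lower in N2swap cells (45.9%) and 58 higher (13.2%), with a median of -0.15. On the 19 other chromosomes, X included, 14.7% to 27.6% of genes were lower and the medians lay between 0.026 and 0.11. Relative to genes elsewhere, and to the mean of the 24 arrays, the median chromosome 14 gene stood at -0.19 to -0.11 on the 3 N2swap arrays and at -0.19 to -0.15 on the 3 N3swap arrays, whereas the HMGN2 arrays stood at 0.053 to 0.064 and the 15 other arrays at -0.0018 to 0.071. No swap array overlapped any of the other 18. The median of chromosome 14 was -0.18 in N2swap minus vector and -0.045 in HMGN2 minus vector. Genes named above that lie there are Psme1, Fdft1, Bmp4 and Bmpr1a. What this has to do with the other differences was not tested.

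**Figure D5:**
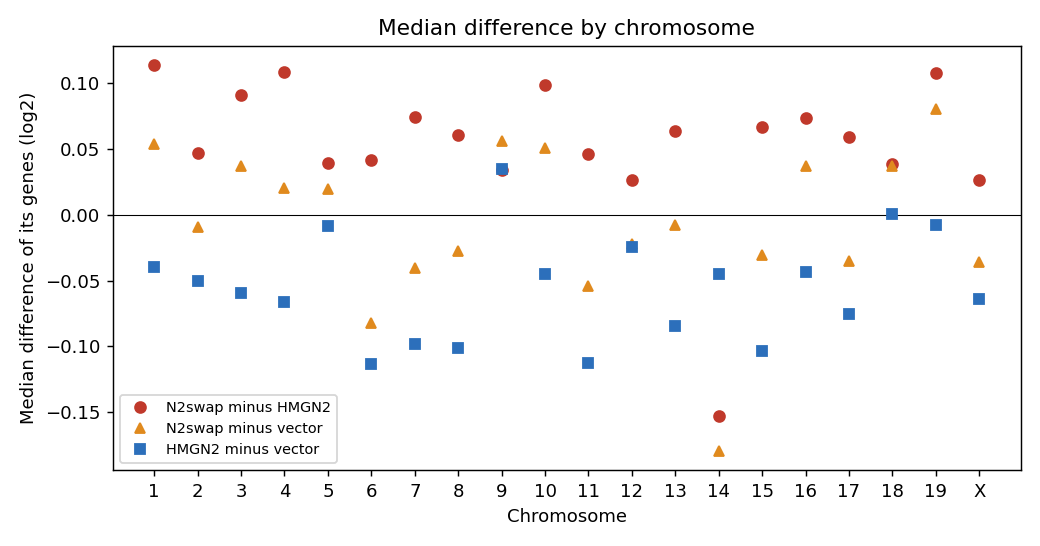
Median difference (log2) of the tested genes of each chromosome for N2swap minus HMGN2 (red circles), N2swap minus vector (orange triangles) and HMGN2 minus vector (blue squares). On chromosome 14 the first is -0.15 and the second -0.18, below those of every other chromosome in the same comparison.

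Probe sets of one gene did not always agree, which bears on a comparison with unequal 3' bias. Of 6294 genes with at least 2 probe sets past the filter, 743 had probe sets called in both directions. For the same genes the median difference was 0.025 on the brightest probe set and -0.028 on the dimmest. The gap between dimmest and brightest, relative to the mean of the 24 arrays, was -0.050, -0.044 and 0.036 on the N2swap arrays and 0.031, 0.073 and 0.079 on the HMGN2 arrays. The third N2swap array, which had the lowest Actb value of its group, thus lay within the HMGN2 range, and the first and second lay below it. With the third N2swap array alone against the 3 HMGN2 arrays, the median was -2.53 for interferon genes and -1.35 for MHC class I genes. The Actb value of that array, 0.39, was still above the highest of the HMGN2 arrays, 0.20. This comparison thus cannot separate 3' bias from construct.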

How the data were processed

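RNA from 51 samples was hybridised to Affymetrix whole-genome mouse arrays, and 24 arrays of SV40 MEFs in 8 groups of 3 were used. The deposited values are RMA intensities on a linear scale, per the submitters' processing notes, whose version and settings are not given in the sources used here, and their number limits the precision. Groups came from the sample titles. The intensities were turned into log2 values with no further normalization. Of 45101 probe sets, 34945 carried 1 gene symbol, 932 several and 9160 none. A filter removed dim probe sets, those that in no group reached the 40th percentile of group means (3.63 on the log2 scale). Each of 13469 genes was then read from its brightest probe set. A mean per group was fitted with limma 3.58.1 (lmFit, makeContrasts and eBayes, R 4.3.3), with two-sided tests and Benjamini-Hochberg adjustment, and the step was tested on simulated data.

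Named genes are those for Hmgn proteins, the called genes without overlap between groups that differed most (14 each way), and of each list up to 4 called and 2 uncalled members. The members, the 36 gene lists and the 9 marker lists were chosen with earlier results of these data known. Lists were counted, not tested. For a gene below the filter level in N2swap or in HMGN2 cells the difference between these groups is given as a bound against that level. Differences from the vector are given as read, also where the vector mean was below that level. Promoter sequences are RefSeq's (GRCm38.p6). Alternatives dropped the filter, took probe sets singly, repeated quantile normalization, or used median centring, a replicate block, only the 6 arrays, the Actb covariate and each array left out. A Gapdh covariate and the third N2swap array alone were added after seeing the data.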

Additional observations from a re-analysis of the deposited data

How the results depend on the processing

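The number of genes called was 5164 to 7079 with no filter, quantile normalization again, median centring, only the 6 arrays, or a Gapdh covariate, against 6762 in the report. With every probe set on its own 12422 of 24632 were called, 5804 higher and 6618 lower, and 3847 passed 1.5-fold, 995 higher and 2852 lower. More features were tested there. With the Actb 3' minus 5' value as a covariate 3698 genes were called, 1669 higher and 2029 lower, of which 2854 were called in the same direction as in the report. Elovl1 turned to -0.18 and was not called. The cause was not tested. Leaving out each array in turn gave 5785 to 6568 called genes and 1444 to 1685 at 1.5-fold or more. With the third N2swap array alone, assumed to vary like the other groups, 5051 genes were called.

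With the replicate number as a block 6662 genes were called. Same-numbered N2swap and HMGN2 arrays had correlated deviations of 0.077, 0.10 and 0.11, each the highest of its array, a hint from the data and not from the design, so they are taken to share only a number.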
